A study of Mus musculus with 9 samples.

Results

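The olfactory receptor (OR) genes numbered Olfr763 to Olfr827 form a cluster on mouse chromosome 10. The members were the genes of the count tables whose names begin with Olfr and carry a number in that range, with any suffix, a rule that uses no measured value. There were 57 such genes among 1248 ORs and 23607 genes, which left 1191 other ORs. In GRCm38 all 57 lay between chr10:129010791-130214403, a span of 1.2 Mb, 25 of them on the plus strand and 32 on the minus strand. The tables held 68 ORs of chromosome 10. The 11 that are not members, 10 outside this span and Olfr247 within it, were counted among the other ORs. GENCODE annotates 56 of the 57 as protein coding, while RefSeq lists 3 (Olfr764, Olfr766 and Olfr779) as pseudogenes.

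In 9 C57BL/6 mice, RNAseq was run on mRNA of the olfactory epithelium (OE) recovered by immunoprecipitation with an antibody against phosphorylated ribosomal protein S6 (pS6-IP). Mice in 3 groups of 3 were exposed for 1 hr to distilled water (control), to 1% heptanal or to 100% heptanal, an aliphatic aldehyde. Replicates 1, 2 and 3 of every group were at postnatal day 22, 21 and 18. Library titles began with YJC in replicate 1 and with YJE in replicates 2 and 3. What these letters stand for is not given, and in replicate 1 they cannot be told apart from age or litter. The methods describe littermates of the same sex within a replication, so mice with the same replicate number were treated as 1 litter where a litter block is named. Each library came from 1 mouse and held 5438466 to 9707543 estimated counts. ORs took 0.143% to 0.866% of the library, with the lowest shares in replicate 1 of the control and 1% heptanal groups. Omp, Adcy3, Ano2, Cnga2 and Gnal, markers of mature olfactory sensory neurons (OSNs), were counted in every mouse.

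ORs are G protein-coupled receptors of the nose, and a mature OSN expresses 1 of them. Odorant binding activates the OSN through the G protein subunit encoded by Gnal and through Adcy3, and neuronal activity leads to phosphorylation of S6 on its ribosomes. Recovery of an OR mRNA with pS6 therefore depends both on how many OSNs express the receptor and on how far their ribosomes are phosphorylated, and in bulk tissue fewer cells of a type and less RNA per cell cannot be told apart.

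RefSeq synonyms place 55 of the 57 genes in 13 MOR families, the mouse OR families grouped by sequence likeness. The largest are MOR114 with 13 members, MOR110 with 10, MOR111 with 8, MOR113 with 5 and MOR210 with 5. Near-identical copies are frequent, since 25 members were at least 95% identical over their coding sequence to another member. ORs share a conserved stretch at the end of the transmembrane segment that precedes the second intracellular loop, and this window is printed below for the genes whose counts the results turn on, because it shows how far the members differ from one another and from their copies. Each line gives 90 bases of GRCm38, 5′ to 3′, read from the RefSeq coding sequence or, for the pseudogenes Olfr766 and Olfr764, from the RefSeq gene, with the bases matching 1 of 2 motifs in capitals.

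Olfr796: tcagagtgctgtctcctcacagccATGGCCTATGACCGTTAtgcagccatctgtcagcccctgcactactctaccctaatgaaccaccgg
Olfr763: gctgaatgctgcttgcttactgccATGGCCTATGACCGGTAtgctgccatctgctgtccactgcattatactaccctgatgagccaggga
Olfr776: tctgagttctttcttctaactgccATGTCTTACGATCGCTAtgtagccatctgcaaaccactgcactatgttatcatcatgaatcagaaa
Olfr766: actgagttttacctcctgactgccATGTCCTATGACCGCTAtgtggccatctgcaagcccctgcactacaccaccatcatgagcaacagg

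These windows lie at chr10:129608060-129608149 on the minus strand, chr10:129011614-129011703 on the plus strand, chr10:129261284-129261373 on the plus strand and chr10:129063550-129063639 on the minus strand, in the same order. The capitals mark the codons for MAYDRY, a conserved motif of ORs, or for its variant MSYDRY, in which serine replaces alanine. Both were searched on the coding strand only, with any base allowed at the positions where the codons of these amino acids vary. The MSYDRY motif occurred in 45 of the 54 members with a coding sequence in RefSeq (83.3%), the 3 pseudogenes left out, against 78 of 1033 other ORs (7.55%). The MAYDRY motif occurred in 2 members, 3.7% of those read, against 495 other ORs (47.9%). Those 2 were Olfr763 and Olfr796, the MOR269 genes of the cluster. They were 66.24% identical to each other, and their longest run of identical bases was 17. A match is a description of these letters and not evidence of function.

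The ORs of the cluster were detected at low levels. With at least 1 estimated count taken as detection, 7, 30 and 24 of the 57 genes were detected in control replicates 1, 2 and 3. The corresponding numbers were 10, 12 and 30 at 1% heptanal and 17, 29 and 30 at 100% heptanal. Replicate 1 had the fewest in all 3 groups. The share of the members detected (12.3% to 52.6%) was below the share of the other ORs (21.7% to 58%) in each of the 9 mice. This is a description over mice of the same gene sets and was not tested, since genes are not replicates.

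The share of genes never seen was no greater than among the other ORs, whereas the share seen in every mouse was smaller. The number with 0 counts in all mice was 8 of 57 (14%), against 228 of 1191 other ORs (19.1%). These members were Olfr773, Olfr774, Olfr790, Olfr807, Olfr814, Olfr815, Olfr818 and Olfr822. A count of 0 in a mouse allows a level of up to 3 counts. Olfr765 and Olfr779 had only fractions of a count from reassigned reads. At the other end, 3 members (5.26%) were detected in all 9 mice, against 152 other ORs (12.8%). They were Olfr769, Olfr776 and Olfr796.

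Levels between genes were compared as CPM, counts scaled to a common library size with trimmed mean of M-values (TMM) factors, per kilobase of GENCODE exon, averaged over the 9 mice. The median level was 0.0745 CPM per kilobase for the members and 0.114 for 1181 other ORs with a length. Only 7.02% of the members exceeded 1 CPM per kilobase, against 21.6% of the other ORs. Olfr776 was the highest at 3.88 CPM per kilobase, which ranked 87 of 1238 ORs, followed by Olfr796 at 3.66 (rank 92), Olfr766 at 1.32 and Olfr769 at 1.25. The highest other OR stood at 44.4 CPM per kilobase.

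**Figure D1:**
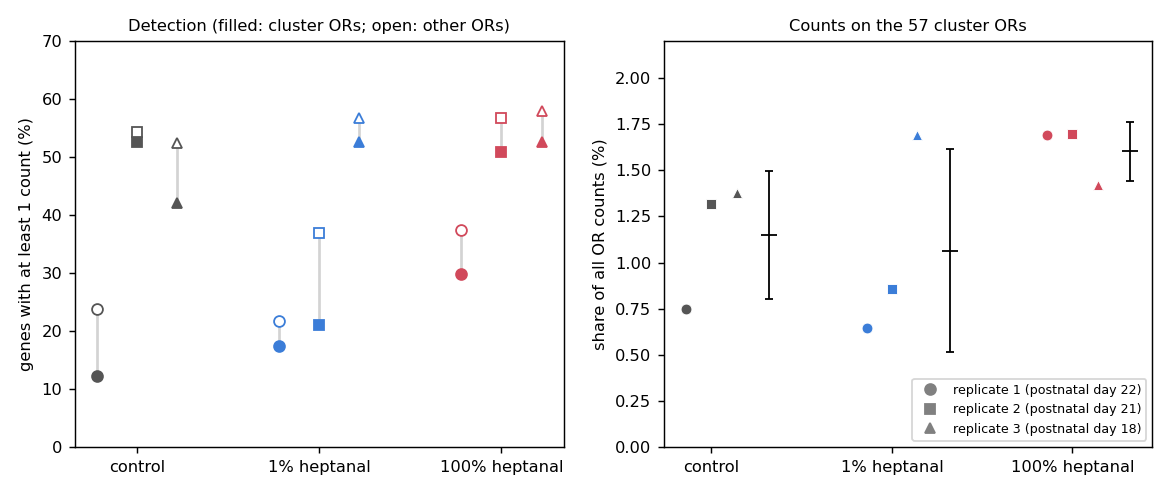
Left, percent of genes with at least 1 estimated count in each mouse, for the 57 cluster ORs (filled) and the 1191 other ORs (open), joined by a line within a mouse. Right, percent of all OR counts on the 57 genes in each mouse, with the mean and SD of each group beside the points. Filled points lie below open points in every mouse, and the 3 mice at 100% heptanal lie between 1.42% and 1.7%, all above the controls.

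The share of all OR counts that fell on the cluster was 0.75%, 1.32% and 1.38% for the control mice, 0.646%, 0.857% and 1.69% for the 1% heptanal mice, and 1.69%, 1.7% and 1.42% for the 100% heptanal mice. The mean was 1.15% ± 0.349 (SD, n = 3), 1.07% ± 0.554 and 1.6% ± 0.156 in that order. The 100% heptanal mice lay above all controls, by little in litter 3, where the ratio to the control was 1.03 against 2.25 in litter 1 and 1.28 in litter 2. With uniquely mapped reads alone the litter 3 ratio was 0.986. The 1% heptanal and control mice overlapped. In scaled counts, the 57 genes together stood at 44.5 ± 28.9 CPM in controls and 115 ± 31.8 at 100% heptanal, with no test of the sum, while the other ORs went from 3570 ± 1740 to 7050 ± 1750 CPM. The ratio of means was 1.97 outside the cluster and 2.58 within it. Olfr776 and Olfr796 together held 54.2%, 18.4% and 20.8% of the members' counts in control mice. They held 59.1%, 51.9% and 29.7% at 1% heptanal, and 75.7%, 42.8% and 25% at 100% heptanal. The sums and shares therefore do not describe the 57 genes evenly, and they were not computed without Olfr776 and Olfr796.

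The question of the design was which receptors are recovered more with pS6 after heptanal. Of the 57 genes, 18 passed the filter on low counts and were tested with edgeR, with p-values adjusted over all 14930 genes tested. Of the 1191 other ORs 430 were tested. A gene could pass the filter through the group where it was high, so statements about these 18 do not describe the cluster as a whole. The remaining 39 had too few counts for a test.

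No member was called at 100% heptanal against control, and 0.0134% of all genes tested were called. The same was true of the other ORs, with 0 of 430 called. With the litter as a block, members called stayed at 0 while 8 other ORs passed (1.86% of them, 1.79% of all ORs tested), as did 0.322% of all genes. At an unadjusted p under 0.05, 2 of the 18 were higher (11.1%) and 0 lower without the block, against 13.5% and 1.63% of the other ORs. The 2 genes were Olfr796 and Olfr776. When p-values of the blocked fit were adjusted over the 448 ORs tested alone, both of them were called, which is 11.1% of 18, against 8.84% of the other ORs. DESeq2 without the block called 1 of the 18, Olfr796 (adjusted p = 0.0479), and 17 of the 430 other ORs.

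Olfr796, an MOR269 receptor with 2 exons (chr10:129605492-129612570), showed the lowest p of the cluster at 100% heptanal. Control mice gave 40, 50 and 25 estimated counts, 1% heptanal mice 27, 42 and 56, and 100% heptanal mice 370, 240 and 71. Litters 1 and 2 were far above every other mouse at 100% heptanal, and litter 3 was above all controls by a small margin. In scaled counts the group means were 5.46 ± 2.04 CPM (SD, n = 3) in controls, 5.59 ± 1.66 at 1% heptanal and 28 ± 17.8 at 100% heptanal. The edgeR log2 fold change at 100% heptanal was 2.36 (SE 0.61, adjusted p = 0.734), and 2.24 with the litter block (SE 0.47, adjusted p = 0.116 over all genes and 0.026 over ORs). At 1% heptanal it was 0.03 (SE 0.59, edgeR adjusted p = 1). All of its reads mapped to 1 place.

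Olfr776 (chr10:129259127-129264298, 2 exons) is an MOR111 receptor and was the most abundant member. Control mice gave 12, 45 and 52 estimated counts, 1% heptanal mice 12, 62 and 209, and 100% heptanal mice 225, 220.4 and 157.8. All 3 mice at 100% heptanal exceeded all controls, and at 1% heptanal replicates 2 and 3, but not replicate 1, did so in scaled counts (10.8 and 20.5 CPM against at most 6.56 in controls). The mean level went from 4.92 ± 2.65 CPM in controls to 11 ± 9.39 at 1% heptanal and 24.8 ± 6.46 at 100% heptanal. The edgeR log2 fold change at 100% heptanal was 2.33 (SE 0.79, adjusted p = 1) and 2.64 with the litter block (SE 0.63, adjusted p = 0.171 over all genes and 0.0335 over ORs). Its value at 1% heptanal was 1.16 (SE 0.77, adjusted p = 1), which did not pass.

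The near copy Olfr775 (named after its values were seen), its neighbour on the chromosome, is 96.06% identical to Olfr776 over the coding sequence. Within the window printed above the pair differed at 4 of 90 bases, shown here in capitals.

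Olfr776: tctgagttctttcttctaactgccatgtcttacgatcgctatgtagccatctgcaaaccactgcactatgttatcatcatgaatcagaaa
Olfr775: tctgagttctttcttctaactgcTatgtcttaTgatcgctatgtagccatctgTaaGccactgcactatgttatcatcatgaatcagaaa

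The Olfr775 window lies at chr10:129250857-129250946 on the plus strand. Olfr775 received 4 counts in control replicate 3 and 0 in the other 8 mice. Of the 995.3 estimated counts of Olfr776, 969 were from uniquely mapped reads, so 2.64% rested on how shared reads were assigned. The other MOR111 gene with a test, Olfr787, gave 0, 30 and 13 counts for control mice, 0 for each 1% heptanal mouse, and 0, 66.6 and 49.2 for 100% heptanal mice. Every 1% heptanal mouse was thus at 0, but so were replicate 1 of the control and 100% groups. Against a floor of 3 counts in each mouse, its mean at 1% heptanal was at least 4.66-fold lower than the measured mean in controls and at least 11.9-fold lower than that at 100% heptanal (edgeR adjusted p = 1 for both). Those 2 means were 1.95 ± 2.13 CPM in controls and 4.99 ± 4.72 at 100% heptanal. The bounds leave out this spread between mice. With the litter block and adjustment over ORs, 100% against 1% heptanal called Olfr787 (adjusted p = 0.0192), Olfr796 (0.0268) and Olfr819 (0.0359), 3 of 18 (16.7%), against 14.2% of the other ORs.

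**Figure D2:**
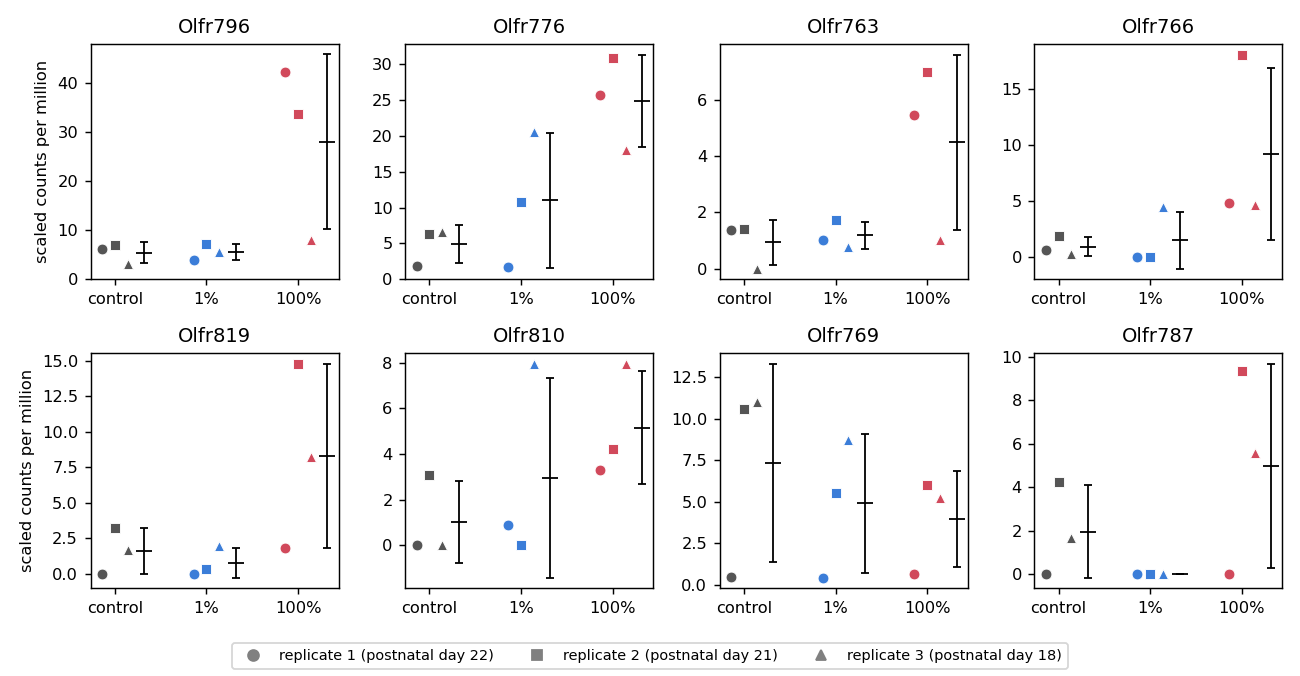
TMM-scaled CPM (vertical axes, linear) of 8 cluster ORs in each mouse of the control, 1% and 100% heptanal groups, with the mean and SD (n = 3) beside the points and symbols for the replicates. Olfr796 and Olfr776 were higher in all 3 mice at 100% heptanal than in any control, while Olfr769 and Olfr787 overlapped between those groups.

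Olfr763 (chr10:129010791-129013313), the other MOR269 member, went the same way as Olfr796 at 100% heptanal. Control mice gave 9.4, 9.8 and 0 estimated counts, 1% heptanal mice 7, 9.78 and 7.57, and 100% heptanal mice 48.4, 50.1 and 8.7. The 100% heptanal mouse was higher than the control in each litter, but the mouse of litter 3 lay below control replicates 1 and 2, so the groups overlapped. The edgeR log2 fold change was 2.26 (SE 1.12, adjusted p = 1), and 2.35 with the litter block (SE 0.82, adjusted p = 0.364 over all genes and 0.0986 over ORs). The blocked edgeR likelihood ratio test was the 1 alternative that called it (adjusted p = 0.0496). Just before the cluster on the chromosome lies another MOR269 gene, Olfr9 (named after its values were seen), 97.31% identical to Olfr763 and with the same bases in the window printed above. Olfr9 gave 5.6, 4.2 and 13 counts for control mice and 27.6, 33.9 and 20.3 for 100% heptanal mice, with a log2 fold change of 1.68 (SE 1.13, edgeR adjusted p = 1). Of the Olfr763 counts 21.7% were reassigned reads, as were 23.8% of the Olfr9 counts. Counting only uniquely mapped reads, Olfr763 had 6, 7 and 0 in controls and 40, 40 and 6 at 100% heptanal.

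Olfr766 and Olfr819 had large fold changes, and a large part of their counts came from shared reads. Olfr766, listed as a pseudogene in RefSeq, gave 4, 13 and 2 estimated counts for control mice, 0, 0 and 45 for 1% heptanal mice, and 41.7, 129 and 40.8 for 100% heptanal mice. The 3 mice at 100% heptanal were above all controls, and its log2 fold change of 3.33 (SE 1.56, edgeR adjusted p = 1) was the highest of the 18. With the litter block Olfr766 was at 3.34 (SE 1.34, edgeR adjusted p = 0.432 over all genes and 0.128 over ORs). However, 50.3% of its counts were reassigned, Olfr764 (named after its values were seen) being 99.25% identical to it with a run of 785 identical bases and no difference in the printed window. Uniquely mapped reads of Olfr766 numbered 4, 8 and 2 in controls and 20, 66 and 17 at 100% heptanal, for a log2 fold change of 2.73.

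Olfr819, the MOR265 member, gave 0.5, 23 and 13 estimated counts for control mice, 0, 2.5 and 20 for 1% heptanal mice, and 16, 105.6 and 72.2 for 100% heptanal mice. The groups overlapped, because control replicate 2 exceeded replicate 1 at 100% heptanal. Within each litter the 100% heptanal mouse was higher (log2 fold change 2.33, SE 1.40, edgeR adjusted p = 1). Here 85.4% of the counts were reassigned. Control mice had 0, 7 and 0 uniquely mapped reads, 1% heptanal mice 0, 0 and 1, and 100% heptanal mice 1, 15 and 13. They were higher at 100% heptanal in each litter, with too few for a test. Its close copy Olfr247 (named after its values were seen), 99.26% identical, had no uniquely mapped read in any mouse.

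**Figure D3:**
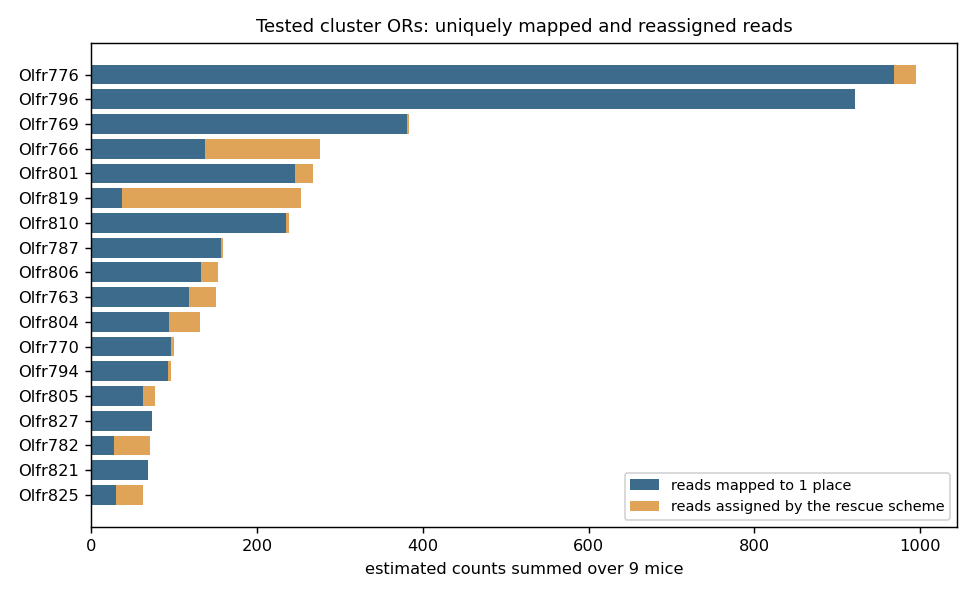
Estimated counts summed over the 9 mice for the 18 tested cluster ORs, split into reads that mapped to 1 place (blue) and reads assigned by the rescue scheme (orange). Olfr796 and Olfr776 consisted almost wholly of uniquely mapped reads, while 85.4% of Olfr819 and 50.3% of Olfr766 were reassigned.

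In the remaining families no gene was called in any alternative run. In MOR114 the 3 tested genes were Olfr769, Olfr770 and Olfr794, and all had log2 fold changes below 0 at 100% heptanal. Olfr769 gave 3, 75.2 and 87 counts for control mice, 3, 32 and 88.7 for 1% heptanal mice, and 6, 43 and 46 for 100% heptanal mice. Replicate 1 was low in all 3 groups. Without the litter block the log2 fold change was small beside its error (−0.89, SE 1.22, edgeR adjusted p = 1). With the block it was −0.64 (SE 0.45, edgeR adjusted p = 0.675 over all genes and 0.358 over ORs), larger than its error but not called. Summed over its 13 genes, MOR114 stood at 13.3 ± 11.4 CPM in controls and 7.14 ± 5.68 at 100% heptanal, which overlapped. Olfr794 gave 1, 26 and 23.2 counts for control mice, 0, 0 and 19 for 1% heptanal mice, and 1, 13 and 13 for 100% heptanal mice (log2 fold change at 100% heptanal −0.98, SE 1.53). Olfr770 was at 0 in replicate 1 of each group and had 8 to 36.4 counts in the other 6 mice (−0.78, SE 1.69). With the block the values were −0.92 (SE 1.06) for Olfr794 and −0.62 (SE 0.93) for Olfr770. In these genes too the groups overlapped.

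MOR110 had 5 tested genes, which went in both directions at 100% heptanal. Olfr801 (1.36, SE 1.76), Olfr804 (0.66, SE 1.66) and Olfr805 (1.92, SE 1.87) had positive log2 fold changes. Olfr782 (−1.08, SE 1.49) and Olfr806 (−0.49, SE 1.12) had negative ones. These values are without the block, and none of them passed the test. With the block Olfr801 was at 1.42 (SE 1.35), Olfr804 at 1.52 (SE 1.06), Olfr805 at 1.62 (SE 1.71) and Olfr782 at −0.94 (SE 1.10), again with none called. Olfr806 gave 25, 18 and 23.2 counts for control mice, 0, 22 and 9.52 for 1% heptanal mice, and 7.47, 11.8 and 36.4 for 100% heptanal mice, so all groups overlapped. Olfr801 gave 0, 39.4 and 12.2 counts for control mice, 0, 0 and 64.7 for 1% heptanal mice, and 12.5, 31.1 and 107.9 for 100% heptanal mice. Control replicate 2 thus exceeded replicate 1 at 100% heptanal. Of the 71.3 Olfr782 counts over all mice 62.1% were reassigned.

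In MOR113 the single tested gene, Olfr810, gave 0, 22 and 0 counts for control mice, 6, 0 and 81 for 1% heptanal mice, and 29, 30 and 70 for 100% heptanal mice. The 100% heptanal mice were above all controls, but so was replicate 3 at 1% heptanal (log2 fold change 2.30, SE 1.74, edgeR adjusted p = 1). Olfr821 of MOR109 had a log2 fold change of 1.57 (SE 1.78). MOR210 lies at the far end of the cluster, and its tested genes Olfr825 and Olfr827 had log2 fold changes of 0.32 and 0.90, both smaller than their SE. These values are without the block. The sign of the Olfr825 value turned in 6 alternatives and held in 16. Of the Olfr825 counts 52.3% were reassigned, and the gene overlaps Gm48514 in GENCODE, from which its reads cannot be told apart without strand. None of the MOR108, MOR112, MOR115, MOR116 and MOR117 genes was tested. Among these Olfr798 of MOR108, named after its values were seen, gave 0, 0 and 0.5 counts for control mice and 2, 27.4 and 27 for 100% heptanal mice.

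**Figure D4:**
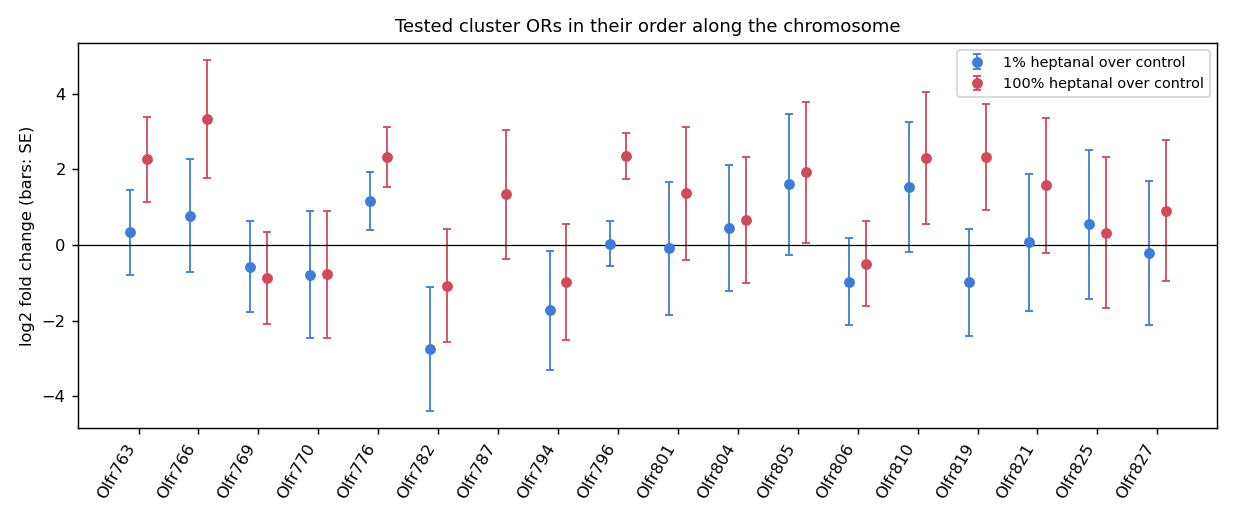
edgeR log2 fold change over control, without the litter block, of the 18 tested cluster ORs in their order along the chromosome, at 1% (blue) and 100% heptanal (red), with SE as bars. Olfr787 has no point at 1% heptanal because all 3 mice were at 0. At 100% heptanal 13 of the 18 points lie above 0, and Olfr796 and Olfr776 have the smallest errors.

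Over the 18 tested genes the median log2 fold change at 100% heptanal was 1.35, against 0.93 over the 430 other ORs and −0.03 over all genes. It was above 0 for 13 of the 18 (72.2%) and for 318 of the other ORs (74%). With the litter block 12 of the 18 (66.7%) and 332 of the other ORs (77.2%) were above 0, with medians of 1.47 and 1.12. These medians describe the genes that passed the filter. The values that follow are without the block. Without a filter, over 48 members with any rounded count, the median was 0.50 against 0.75 for the other ORs, so the order of the medians turned. The member median also depended on single mice, with the filter applied again in each fit. It was 0.31 without 100% heptanal replicate 3 (0.77 for the other ORs, 19 members tested). Without control replicate 1 it was 0.76 against 0.56 (21 tested), and without control replicate 2 it was 2.57 against 1.59 (20 tested). Of the 18 genes 4 (22.2%), Olfr766, Olfr776, Olfr796 and Olfr810, were higher in every 100% heptanal mouse than in any control, as were 20% of the other ORs and 5.96% of all genes. In all 3 litters 38.9% of the members and 43.5% of the other ORs were higher.

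At 1% heptanal no member and no other gene was called (0% of 14930). The lowest unadjusted p among the members that were higher belonged to Olfr776, and 0 of the 18 were higher at an unadjusted p under 0.05. The median log2 fold change was −0.03, against −0.12 over the other ORs, with 9 of 18 above 0. Not one of the 18 genes was higher in all 3 litters, against 5.58% of the other ORs. Olfr787 was the 1 gene lower at an unadjusted p under 0.05 (5.56% of 18), against 3.49% of the other ORs. Olfr782 (−2.75, SE 1.63) and Olfr794 (−1.73, SE 1.57) had the next lowest values by p (edgeR adjusted p = 1 for both). With the litter block 2 of the 18 (11.1%), Olfr787 and Olfr782, were lower at an unadjusted p under 0.05, against 6.28% of the other ORs. Adjusted over ORs, their edgeR p-values in that fit were 0.188 and 0.455.

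**Figure D5:**
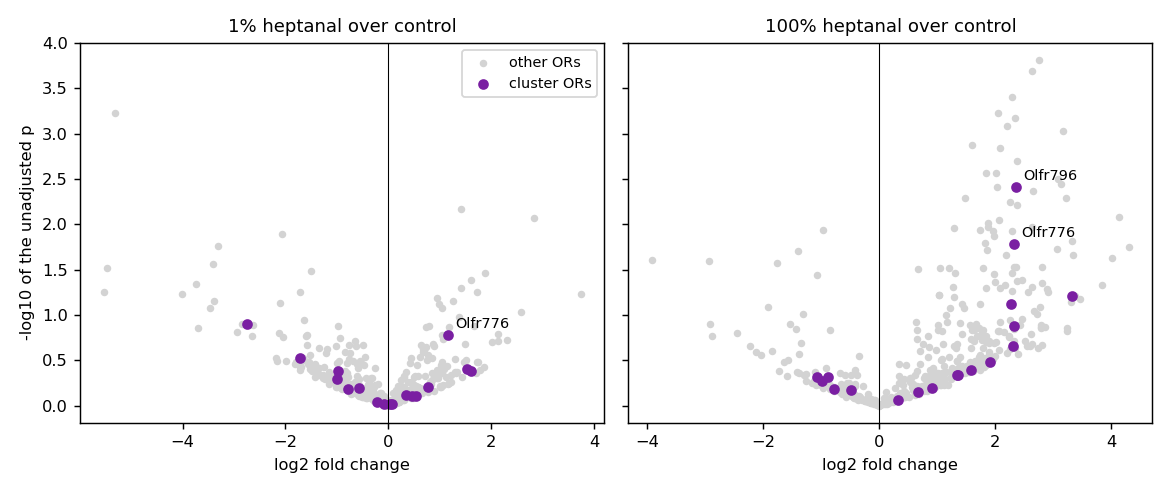
Log2 fold change (horizontal) and −log10 of the unadjusted edgeR p (vertical) of the tested cluster ORs (purple) and other ORs (grey) at 1% and 100% heptanal over control. Both come from the fit without the litter block. Genes at 0 in all mice of a group compared are left out, since their fold change is not defined. At 100% heptanal most ORs of both kinds lie to the right of 0, with Olfr796 and Olfr776 highest among the cluster ORs.

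Markers of mature OSNs, the cells that express ORs, summed higher at 100% heptanal. The summed level of the 5 mature OSN markers was 4230 to 8700 CPM in controls, 6150 to 8470 at 1% heptanal and 10500 to 14900 at 100% heptanal, with no marker at 0. Omp made up most of it, at 3290 to 6500 CPM in controls and 8700 to 12000 at 100% heptanal. Cnga2 was also higher in every 100% heptanal mouse than in any control, while Adcy3, Ano2 and Gnal overlapped. Of the 5, 0 passed without the block and Omp, encoding olfactory marker protein, passed with it (log2 fold change 1.11, edgeR adjusted p = 0.0311). Scaled by these 5 markers instead of by TMM, the median log2 fold change of the members at 100% heptanal was 0.83, against 0.21 for the other ORs. The values were then 1.53 for Olfr796 and 1.41 for Olfr776. With TMM factors taken over ORs only, the median of the members was 0.69 against 0.12 for the other ORs, and the median over all genes moved to −1.11. Under the block, both scalings called Olfr766, Olfr776 and Olfr796 higher and 0 members lower. Of the 430 other ORs, marker scaling called 44 higher and 20 lower, and TMM over ORs called 51 higher and 35 lower. The 4 sustentacular cell markers also summed higher, from 1270 to 1440 CPM in controls to 1710 to 2920 at 100% heptanal, with 0 of 4 called. Among them only Cyp2g1 was higher in every 100% heptanal mouse than in any control. The part of these markers in the result was not tested.

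Of 13 genes of the odour transduction pathway downstream of the receptors, 0 passed at 100% heptanal without the block, with a median log2 fold change of 0.55. With the block 2 were higher, Gng13, a G protein subunit (1.41, edgeR adjusted p = 0.023), and Stoml3, a stomatin-like protein of the OSN cilia (1.22, edgeR adjusted p = 0.0231). Of 7 genes for OR export and expression, among them the receptor transporters Rtp1 and Rtp2, 0 passed either way (median 0.29). Of 7 immediate early genes, which are transcribed rapidly after neuronal activity, Fosb was higher without the block (4.97, edgeR adjusted p = 0.00398), and Fos, Fosb, Egr1 and Nr4a1, 4 of the 7, were higher with it. At 1% heptanal 0 genes of these 3 lists passed in either fit.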

How the data were processed

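The OE of 9 mice was profiled by pS6-IP RNAseq, libraries being made with a transposase-based kit. The authors mapped reads to mm10 (GRCm38) with Bowtie and used bedtools to count reads over annotated genes, OR gene models being taken from an earlier publication. A rescue scheme of the authors then divided reads that map to more than 1 gene. The tables have no header, so the meaning of their columns was inferred from the values and the methods. The first value column, whole numbers that never exceed the last column, was taken as counts of uniquely mapped reads, and the last as the estimated counts that the authors obtained after the rescue and deposited. Every value given as uniquely mapped or reassigned depends on this reading. Neither was normalized. Whether counting used strand is not given in the sources used here. Intermediate rescue columns were not used.

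Estimated counts were rounded. All 9 mice entered 1 edgeR (4.0.16, R 4.3.3) quasi-likelihood fit of 3 groups without a block, after filterByExpr (minimum count 10) and TMM. P-values were two-sided and adjusted by the Benjamini-Hochberg method with a threshold of 0.05. SE was derived from the fold change and its F statistic. DESeq2 1.42.0 was an alternative. The test was checked on simulated counts. No pair of libraries of a group agreed within sampling noise.

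Postnatal days in the labels and the study's use of littermates pair the replicate numbers. Deviations from group means correlated at 0.524 on average over the 9 same-day pairs of mice (0.145 to 0.715) across genes. Over ORs alone the same-day average was 0.317 (−0.047 to 0.563). The 18 pairs from different days averaged −0.245 across genes (up to 0.451) and −0.153 over ORs (up to 0.355). P-values measure the spread between mice. Counting intervals were not computed, and a floor of 3 counts in each mouse covers counting error only (0.295 to 0.52 CPM).

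Coordinates and exon lengths came from GENCODE M21, and coding sequences and MOR names from RefSeq, on GRCm38. All 57 members matched by symbol. Percent identity was from global alignment with Biopython 1.88.

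The genes named were those called, the 10 with the highest mean CPM, the 5 with the lowest p in each direction for each concentration, those at 0 in all mice, the 3 with the largest reassigned share, and genes of the pathway and marker lists. Olfr804, Olfr821 and Olfr827 fell under none of these rules and are the remaining tested members. The members and lists were chosen for description with earlier results of these data known, although the rule for members uses gene numbers alone. Of the marker lists, immature OSN, horizontal basal, globose basal, sustentacular, Bowman gland, microvillous, respiratory, and blood and immune genes had 0 calls at either concentration without the block and with it. Alternatives numbered 30, of which 2 were added later. Plots were drawn with matplotlib 3.10.9.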

Additional observations from a re-analysis of the deposited data

How the results depend on the processing

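With the replicate block (postnatal day), adjusted over all genes, the members called stayed at 0 in all 3 comparisons. Other settings with the replicate block called members at 100% heptanal over control: 2 with adjustment over tested ORs, 3 with TMM over ORs only, 3 with scaling by the 5 OSN markers, 3 with the likelihood ratio test, 2 with DESeq2, and 2 with uniquely mapped reads and adjustment over tested ORs. The same settings called 38, 51, 44, 57, 49 and 39 of the other ORs higher, of 430 tested (398 with uniquely mapped reads, where 14 members were tested in place of 18). DESeq2 without the block called 1 member and 17 other ORs. At 100% over 1% heptanal the same 6 settings called 3, 2, 3, 3, 2 and 2 members, and 61, 77, 82, 71, 66 and 55 other ORs. At 1% heptanal the blocked likelihood ratio test called 1 lower member, Olfr787, and 5 lower other ORs. All other settings called 0 members, as did every fit leaving out 1 mouse or, with the block, 1 litter. The block with no filter and the block with uniquely mapped reads and adjustment over ORs were chosen after seeing the data.

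Olfr796 and Olfr776 kept a positive log2 fold change at 100% heptanal in all 30 alternatives, and passed the test in 7 and 6 of them. Both had the lowest p of the rising members in these data and were higher in every 100% heptanal mouse than in any control. Leaving out mice could therefore not turn the sign. Leaving out 1 mouse without the block gave 1.93 to 2.80 for Olfr796 and 1.94 to 2.59 for Olfr776. With the block but without replicate 1, which had the fewest OR counts, they were 1.86 and 1.91. The median over the tested members at 100% heptanal ran from 0.31 to 2.57 when 1 mouse was left out, and at 1% heptanal from −1.27 without 1% heptanal replicate 3 to 0.96 without control replicate 2. Detection at a minimum of 3 counts ran from 6 to 28 of 57 members in a mouse, and at 10 counts from 2 to 19. With 3 mice a group and few counts per gene, changes larger than their SE could also fail the test. Olfr796 did so without the block at 2.36 (SE 0.61, edgeR adjusted p = 0.734). A gene that was not called is therefore not shown to be unchanged.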
